A study of Rattus norvegicus with 6 samples.

Results

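The transcripts of the mitochondrial genome were examined in rat calvarial bone defects, holes in the roof of the skull that had been filled with one of 2 hydrogels. The members are all 37 rows that the deposited gene table places on the mitochondrial chromosome (MT), of 34045 rows in all: 13 protein-coding genes, 2 ribosomal RNA (rRNA) genes and 22 transfer RNA (tRNA) genes. Bulk RNA was sequenced in read pairs from the defect tissue of male, wild type Sprague-Dawley rats, an outbred stock, at week 4 after surgery. Defects filled with the gel called CGG gave 3 libraries (CGG 1, 2 and 3), and defects filled with the gel called CGG-Cit gave 3 (CGG-Cit 1, 2 and 3). The labels spell out neither name, and the groups share strain, sex, genotype and time. The comparison asks how the defect tissue differs between the gels, the series title tying them to a metabolite of the tricarboxylic acid cycle, which runs in mitochondria. Whether each library stands for its own rat is not stated in the labels. The p-values therefore cover only the spread among the libraries sequenced, and part or all of that spread may be technical.

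The mitochondrial genome is a small circle of DNA inside the organelle. Its protein-coding genes specify core subunits of the respiratory chain and of ATP synthase: complex I (NADH dehydrogenase, the ND genes), complex III (cytochrome b, CYTB), complex IV (cytochrome c oxidase, the COX genes) and complex V (ATP synthase, the ATP genes). All other subunits, complex II entirely, and every protein that copies, transcribes and translates this genome are encoded in the nucleus. Both strands are transcribed as long precursors, which are cut at the tRNAs lying between the messages, so the members share transcripts and are not independent of each other. Skeletal muscle is rich in mitochondria, neutrophils are poor in them, and mature red cells have lost them.

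The whole fragments recovered from the table summed to 14744207 to 16224920 per library. Markers of bone were present: the 6 osteoblast markers summed to 8521 to 12552 FPKM (fragments per kilobase of gene length, corrected for library size) in CGG and 4168 to 7111 in CGG-Cit. CGG 2 stood apart from the other CGG libraries in the mitochondrial transcripts, and results that rest on it are given with and without it. Of the 15965 genes whose mean reached 0.5 FPKM, which were tested with limma on log2(FPKM + 1), 17.5% passed at a Benjamini-Hochberg adjusted p under 0.05, 9.78% lower and 7.75% higher in CGG-Cit. Every log2 difference below is CGG-Cit minus CGG on that log2(FPKM + 1) scale.

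Mitochondrial genes took up a large part of every library. Their share of all assigned fragments was 6.09%, 9.84% and 6.87% in CGG 1, 2 and 3, against 4.86%, 5.5% and 5.21% in CGG-Cit 1, 2 and 3. The groups did not overlap, and CGG 2 was the highest library by far. The mean share was 7.6% ± 1.98 (SD, n = 3) in CGG and 5.19% ± 0.318 in CGG-Cit, a difference of -2.41 percentage points that shrank to -1.29 without CGG 2. Wilson 95% intervals of the single shares reached at most 0.0145 percentage points to either side, covering counting error only. COX1 was the most abundant gene of the whole table in CGG-Cit 1 and 2, and the alpha globin gene Hba-a1 in the other libraries. Among the 10 most abundant genes, 5 or 6 were mitochondrial in the CGG libraries and 4 in each CGG-Cit library. Protein-coding members held nearly all of them, 4.73% to 9.61% of a library's fragments, against 0.117% to 0.229% for the rRNA genes and 0.00489% to 0.00724% for the tRNA genes.

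**Figure D1:**
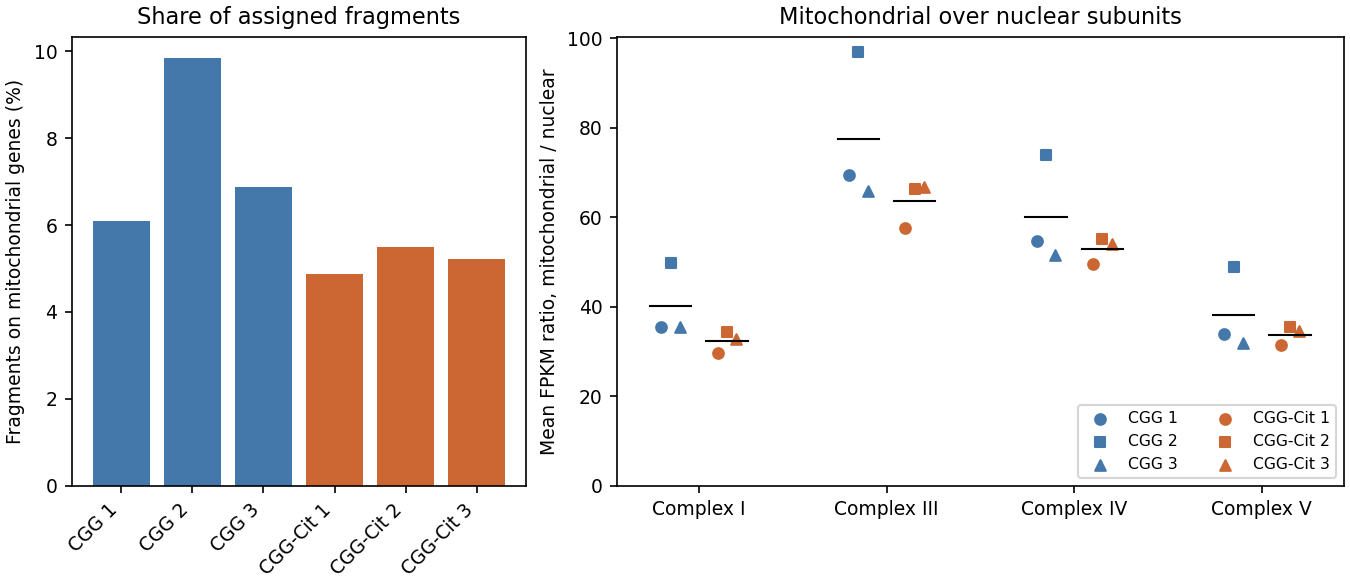
Left, percent of assigned fragments that fell on the 37 mitochondrial genes in each library (bars). Right, mean FPKM per mitochondrial subunit gene divided by mean FPKM per nuclear subunit gene of the same complex, in each library (points; lines are group means). CGG 2 is the highest library throughout, and in complexes III, IV and V the ranges of CGG 1 and 3 and of CGG-Cit overlap.

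None of the 13 protein-coding genes passed the test. All 13 had a lower mean in CGG-Cit, by 24.4% to 42.8% of the CGG mean (median 36.4%), at log2 differences of -0.76 to -0.42, although under quantile normalization, which gives every library the same spread of values, COX1, COX2 and COX3 turned higher and ATP6 came to 0. In 11 of the 13 every CGG-Cit library lay below every CGG library, against 22.1% of all genes tested, and over all genes 49.8% had a difference below 0. ND4 is among the 11 and gave the 24.4%, but its level is uncertain. With a chromosome 20 locus described as the same protein added, its groups overlapped (below). With limma the adjusted p-values ran from 0.0848 to 0.331, where 0 genes passed and 6, all lower, had an unadjusted p under 0.05, against 18.6% of all genes lower at that level. Limma's voom, run on recovered fragments, also passed 0, with 10 under 0.05 unadjusted, against 35.4% of all genes in either direction. A p that misses the threshold does not show that the groups were alike. CGG 2 was the highest CGG library, and the highest of all 6, for all 13 genes. It stood at 1.14 (ND4) to 1.72 times the mean of CGG 1 and 3 (median 1.64). Over all genes it was the highest CGG library in 33.7%, and at least 1.5 times that mean (on FPKM + 1) in 5.19%. Against CGG 1 and 3 alone the CGG-Cit means were 12.5% to 29.8% lower (median 23.6%), and without CGG 2 limma's adjusted p-values were 0.132 to 0.64. In these bulk samples, fewer mitochondria-rich cells and less RNA per cell cannot be told apart.

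**Figure D2:**
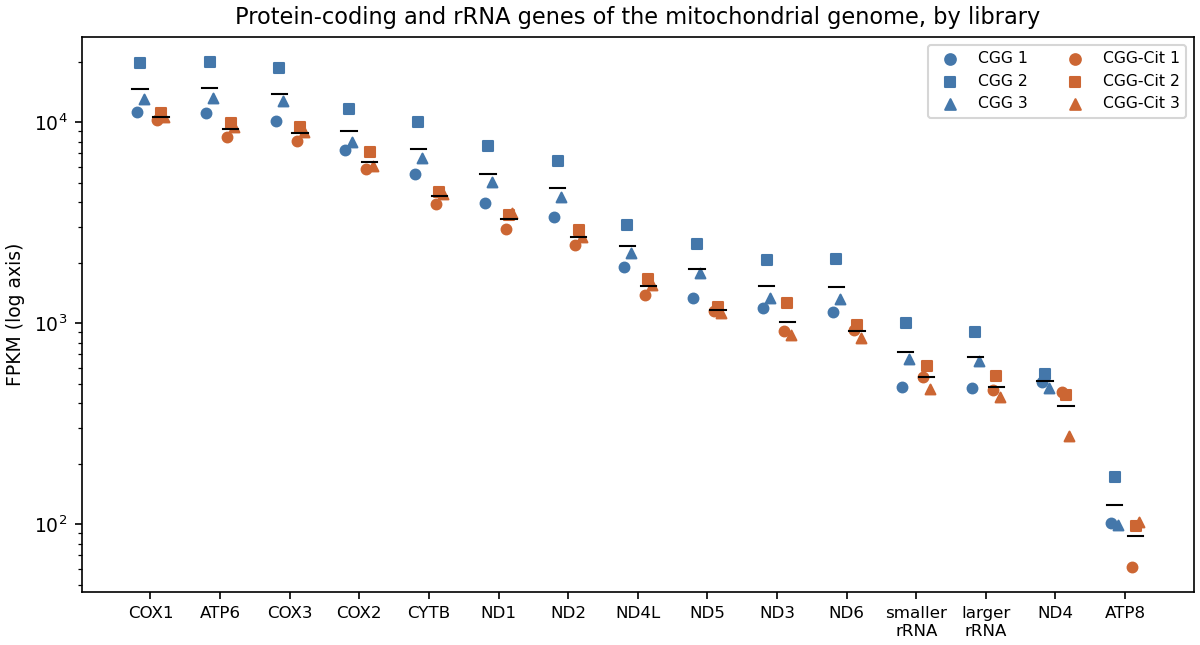
FPKM (log axis) of the 13 protein-coding and 2 rRNA genes in each of the 6 libraries (points; lines are group means), ordered by mean level. CGG 2 (blue squares) is the highest library for all 15 genes, and the CGG-Cit means lie below the CGG means in the deposited FPKM; with quantile normalization COX1, COX2 and COX3 are higher in CGG-Cit.

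The subunits of complex IV, which passes electrons to oxygen, were among the most abundant messages. COX1, the catalytic subunit (listed at MT 5323 to 6867, plus strand), stood at 11265, 19578 and 13094 FPKM in CGG 1, 2 and 3 and at 10202, 11148 and 10632 in CGG-Cit 1, 2 and 3. The lowest CGG library lay just above the highest CGG-Cit library, and COX1 had the smallest log2 difference of the 13, -0.42 ± 0.282 (SE; limma adjusted p = 0.331; 0.44 with quantile normalization). COX2, which takes up electrons from cytochrome c (MT 7006 to 7689), stood at 7302, 11653 and 7998 FPKM in CGG and at 5874, 7074 and 6079 in CGG-Cit. Its groups did not overlap, with a difference of -0.48 ± 0.25 (limma adjusted p = 0.223; 0.20 with quantile normalization). COX3 (MT 8599 to 9382) stood at 10094, 18495 and 12731 FPKM in CGG and at 8064, 9405 and 8923 in CGG-Cit. These too did not overlap, at -0.60 ± 0.287 (limma adjusted p = 0.186; 0.10 with quantile normalization).

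CYTB, the only mitochondrial subunit of complex III (MT 14136 to 15278, plus strand), stood at 5541, 9975 and 6596 FPKM in CGG 1, 2 and 3 and at 3933, 4495 and 4399 in CGG-Cit 1, 2 and 3. Every CGG-Cit library was at least 1046 FPKM below the lowest CGG library. The log2 difference was -0.74 ± 0.26 (SE), with a limma adjusted p of 0.094. Without CGG 2 the CGG-Cit mean was 29.5% below that of CGG 1 and 3, against 42% below the mean of all 3 CGG libraries.

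The 7 subunits of complex I, the entry point for electrons from NADH, covered a 9.79-fold range of levels. ND1 (MT 2740 to 3694), which helps form the site where ubiquinone binds, stood at 3966, 7622 and 5062 FPKM in CGG and at 2929, 3437 and 3547 in CGG-Cit. ND2 (MT 3904 to 4942), a proton-pumping subunit, stood at 3369, 6431 and 4261 FPKM in CGG and at 2438, 2919 and 2683 in CGG-Cit. Neither gene's groups overlapped, and ND2 had the lowest difference of all 13 genes, -0.76 ± 0.262 (SE; limma adjusted p = 0.0918), with ND1 at -0.70 ± 0.27 (limma adjusted p = 0.119).

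ND4L (MT 9870 to 10166), a small membrane subunit, stood at 1900, 3089 and 2237 FPKM in CGG and at 1379, 1665 and 1553 in CGG-Cit. It had the smallest p of the 13, with a difference of -0.63 ± 0.21 (SE; limma adjusted p = 0.0848). ND3 (MT 9451 to 9798) stood at 1195, 2071 and 1331 FPKM in CGG and at 913, 1266 and 874 in CGG-Cit. Its groups overlapped, since CGG-Cit 2 lay above CGG 1, and the difference was -0.57 ± 0.253 (limma adjusted p = 0.162).

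ND5 (MT 11736 to 13565), another proton-pumping subunit and the longest gene of the set, stood at 1331, 2481 and 1785 FPKM in CGG and at 1148, 1209 and 1122 in CGG-Cit. The CGG-Cit libraries lay within 1.08-fold of each other, the CGG libraries within 1.86-fold, and the groups did not overlap (-0.64 ± 0.232, SE; limma adjusted p = 0.103). ND6 (MT 13543 to 14061) is the one protein-coding member on the minus strand, so its message comes from the opposite precursor. It stood at 1136, 2093 and 1316 FPKM in CGG and at 927, 980 and 844 in CGG-Cit, without overlap (-0.68 ± 0.237; limma adjusted p = 0.0953). ND6 amounted to 1.97%, 2.05% and 1.91% of the summed FPKM of the 12 plus-strand genes in CGG and to 2.02%, 1.85% and 1.7% in CGG-Cit. Those ranges overlapped, and ND5 and ND6 share 23 bases on opposite strands, so that reads there cannot be assigned without a strand setting.

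ATP6 and ATP8 specify 2 membrane subunits of ATP synthase and share 43 bases. ATP6 (MT 7919 to 8599), which lines the proton path, stood at 11066, 19913 and 13179 FPKM in CGG and at 8425, 9933 and 9441 in CGG-Cit, without overlap (-0.63 ± 0.289, SE; limma adjusted p = 0.175; 0 with quantile normalization). ATP8 (MT 7758 to 7961), at 204 bases the shortest protein-coding member, stood at 101, 172 and 99.2 FPKM in CGG and at 61.6, 98.5 and 102 in CGG-Cit. Its groups overlapped (-0.49 ± 0.279; limma adjusted p = 0.259). ATP6 was counted at 92.3 to 137 times the level of ATP8, although both are known to lie on 1 message. How reads in the shared bases were counted is not given in the sources used here.

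ND4 (MT 10160 to 11537), a proton-pumping subunit of complex I, did not follow the other messages from library to library. It stood at 509, 562 and 476 FPKM in CGG 1, 2 and 3 and at 453, 442 and 274 in CGG-Cit 1, 2 and 3, and CGG 2 was only 1.14 times the mean of CGG 1 and 3. The difference was -0.44 ± 0.209 (SE; limma adjusted p = 0.188). ND4L, which shares 7 bases and a message with it, was listed at 3.05 to 5.67 times its level. The table also holds an unnamed locus of 1086 bases on chromosome 20 (19484421 to 19485846 as listed, plus strand; no build could be tied to the coordinates) that it describes as chain 4 of NADH-ubiquinone oxidoreductase, the protein of ND4. That locus held 4669, 23981 and 4818 fragments in CGG and 503, 3120 and 11359 in CGG-Cit, where ND4 held 11190, 12096 and 9980 and 9531, 9393 and 6338. The locus thus took 29.4%, 66.5% and 32.6% of the fragments of both in CGG and 5.01%, 24.9% and 64.2% in CGG-Cit. CGG 2 and CGG-Cit 3 were the high libraries, the others lay at or under 32.6%, and the groups overlapped. Reads of near-identical copies can be split between such rows, so the ND4 level is uncertain. With both rows added and divided by the length of ND4, the values were 721, 1675 and 705 FPKM in CGG and 476, 588 and 765 in CGG-Cit, where the groups overlapped. Both other loci described as a mitochondrial protein, each as COX1, held at most 33 fragments in any library.

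**Figure D3:**
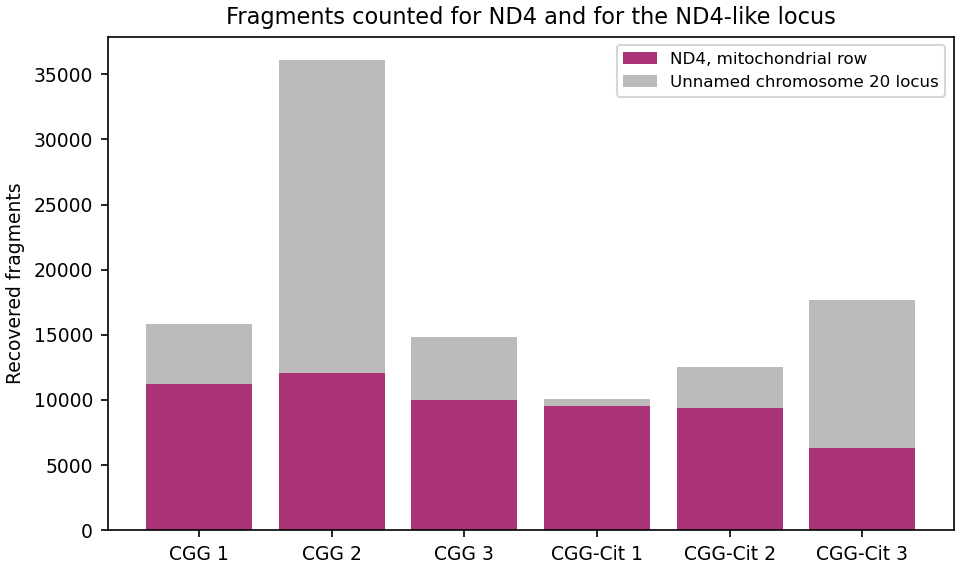
Recovered fragments (stacked bars) counted for ND4 on the mitochondrial chromosome and for the unnamed locus on chromosome 20 described as the same protein, in each library. The ND4 bars lie between 6338 and 12096 fragments, whereas the chromosome 20 locus runs from 503 in CGG-Cit 1 to 23981 in CGG 2.

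The rRNA genes specify the RNAs of the small and large subunits of the mitochondrial ribosome. The smaller gene (MT 68 to 1025) stood at 480, 1002 and 667 FPKM in CGG and at 541, 614 and 472 in CGG-Cit. The larger gene (MT 1094 to 2664) stood at 476, 900 and 648 FPKM in CGG and at 467, 549 and 429 in CGG-Cit. Both overlapped between groups, with CGG 2 high, and neither passed (-0.34 ± 0.269 and -0.45 ± 0.238, SE; limma adjusted p = 0.402 and 0.231). Against CGG 1 and 3 alone, the CGG-Cit means were 5.44% and 14.4% lower. The rRNA fragments amounted to 2.15%, 2.38% and 2.47% of the protein-coding fragments in CGG and to 2.74%, 2.79% and 2.3% in CGG-Cit, which overlapped. Whether the libraries were made by poly(A) selection or rRNA depletion is not given in the sources used here, so the level of rRNA against messages is that of these libraries, not of the tissue.

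The tRNA genes, each 60 to 75 bases long, were counted thinly and unevenly, and the table does not name their amino acids. Since the library preparation is not given, the values are fragments counted on these rows, not tRNA levels of the tissue. Whether those fragments came from mature tRNAs or from uncut precursors was not tested. Of the 22, 15 reached the level for testing, 5 had no fragment in any library and the other two had at most 1 fragment in a library. A count of 0 allows up to 3 fragments, at most 2.03e-05% of a library's total. The 3 tested genes with the highest mean were all on the minus strand, and the 8 minus-strand genes held 698 to 1067 tRNA fragments per library against 33 to 108 for the 14 plus-strand genes. The gene at MT 15348 to 15415 (minus strand) alone held 57.7% to 73.7% of all tRNA fragments. It stood at 572, 638 and 465 FPKM in CGG and at 570, 483 and 542 in CGG-Cit. These values interleave, with CGG 2 the highest library at 1.23 times the mean of CGG 1 and 3. The difference was -0.06 ± 0.148 (SE; limma adjusted p = 0.795), turning to 0.11 after rescaling each library to 1 total (TPM), 0.0606 after doing so over nuclear genes only (nuclear TPM), 0.065 with quantile normalization and 0.0399 without CGG 2, and also above 0 without CGG-Cit 2. Next in level came the genes at MT 5081 to 5152, with 85.8 to 147 FPKM in CGG and 62.1 to 83.7 in CGG-Cit, and at MT 5256 to 5321, with 49.4 to 70.8 and 40.6 to 47.1. The lowest 3 tested, which start at MT 11606, MT 11665 and MT 9383, held 0 to 2, 0 to 2 and 0 to 5 fragments in a library, too few to order the groups.

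Only 1 of the 30 members tested passed, the tRNA gene between ND3 and ND4L (MT 9800 to 9867, plus strand), against 9.78% of all genes called lower. It stood at 26.7, 30.1 and 29 FPKM in CGG 1, 2 and 3 and at 15.4, 19.1 and 22.8 in CGG-Cit 1, 2 and 3, which rests on 29, 32 and 30 and on 16, 20 and 26 fragments. The groups did not overlap, and CGG 2 was the highest library at 1.08 times the mean of CGG 1 and 3. The gene was called lower, at a log2 difference of -0.58 ± 0.146 (SE) and a limma adjusted p of 0.0412. That SE reflects the spread among libraries and was not set against the counting error of so few fragments. Limma's voom, run on recovered fragments, gave an adjusted p of 0.218. The call ended in 10 of 18 alternative fits, among them every fit without 1 library except that without CGG-Cit 3, both TPM scalings, voom, no filter and the replicate block (limma adjusted p up to 0.218). Of the 14 other tRNA genes tested, 12 had a lower mean and 2 a higher one, and limma adjusted p-values ran from 0.0562 to 0.985. In 5 of these 14 the groups did not overlap, with CGG-Cit lower, against 22.1% of all genes tested.

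The make-up of the messages, each gene as a share of the summed FPKM of the 13, is free of library scaling. COX1 made up 19.2%, 18.8% and 18.7% in CGG 1, 2 and 3, against 21.8%, 20.6% and 21.1% in CGG-Cit 1, 2 and 3. CYTB made up 9.43%, 9.58% and 9.4% in CGG and 8.41%, 8.31% and 8.72% in CGG-Cit. ND2 made up 5.73%, 6.18% and 6.07% in CGG and 5.21%, 5.4% and 5.32% in CGG-Cit. In these genes the groups did not overlap, COX1 holding a larger part in CGG-Cit and CYTB and ND2 a smaller one. The CGG libraries lay close together for COX1 and CYTB but ran from 5.73% to 6.18% for ND2. ATP6 also lay lower without overlap, at 18.8% to 19.1% against 18% to 18.7%, and the other 9 genes overlapped. CGG 2 held the highest share of all libraries for CYTB, ND2 and ATP6, and lay between CGG 1 and 3 for COX1. By complex, complex IV made up 47.8% to 48.8% in CGG and 50.8% to 51.6% in CGG-Cit, complex III as CYTB, complex I 22.8% to 23.5% and 21.6% to 22%, and complex V 18.9% to 19.3% and 18.2% to 18.9%. COX1 over ATP6, a ratio of 2 plus-strand messages, was 1.02, 0.983 and 0.994 in CGG and 1.21, 1.12 and 1.13 in CGG-Cit. COX1 over COX3 also did not overlap, at 1.03 to 1.12 in CGG and 1.19 to 1.27 in CGG-Cit. COX1 over COX2 overlapped, at 1.54 to 1.68 in CGG and 1.58 to 1.75 in CGG-Cit. A share of a sum shows unequal change and not which gene changed, and no p is given, since these shares are scores over the members.

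**Figure D4:**
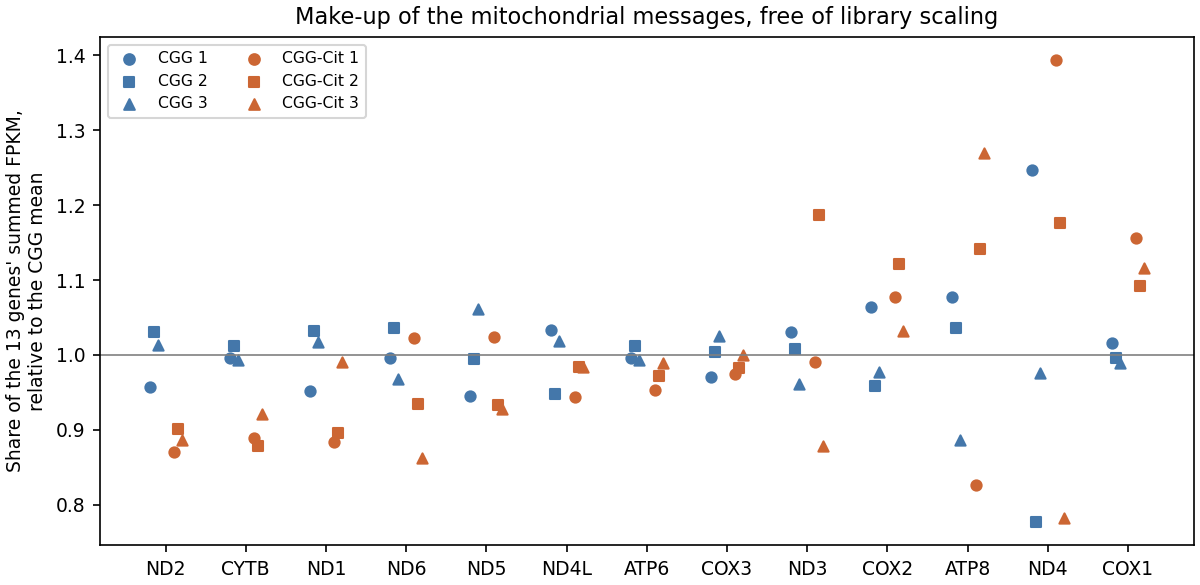
Each protein-coding gene's share of the summed FPKM of the 13 genes, divided by its mean share in CGG, in each library (points). COX1 lies above 1 in all CGG-Cit libraries and CYTB and ND2 below, without overlap with CGG, while ATP8 and ND4 scatter widely in both groups.

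Nuclear genes for the same complexes were called more often. Of 74 tested nuclear subunit genes of complexes I to V, 29 fell and 0 rose (39.2% lower, against 9.78% of all genes; median log2 difference -0.41, against 0.00 over all genes). By complex, 13 of 35 fell in complex I, 0 of 4 in complex II, 5 of 9 in complex III, 4 of 11 in complex IV and 7 of 15 in complex V, and 0 rose in any. Ndufs3, a core subunit of complex I, fell from 41.7 ± 5.12 to 27.3 ± 0.509 FPKM (SD, n = 3; limma adjusted p = 0.0201), and the accessory subunit genes Ndufa11 and Ndufb11 fell by 0.57 and 0.48 on the log2 scale. In complex III, Uqcrfs1, the Rieske iron-sulfur protein that works beside cytochrome b, fell from 136 ± 19 to 88 ± 3.63 FPKM (limma adjusted p = 0.0233), Uqcrc2 fell by 0.46 and Uqcrq fell by 0.55. In complex IV, Cox5a fell from 251 ± 30.2 to 151 ± 13.3 FPKM (limma adjusted p = 0.0179), Ndufa4 fell by 0.70 and Cox7c fell by 0.70. In complex V, Atp5f1a, the alpha subunit of the catalytic head, fell from 357 ± 50.8 to 218 ± 23.8 FPKM (limma adjusted p = 0.0234), Atp5me fell by 0.78 and Atp5mc2 fell by 0.45. The muscle forms Cox6a2 and Cox8b, 2 of 2 tested, fell, at log2 differences of -5.60 and -4.91, and passed in all 18 alternative fits. The other 12 genes named here no longer passed without CGG 3 or without CGG-Cit 2 (limma adjusted p up to 0.104 over their alternatives). The count of 29 depended on single libraries: leaving out CGG 1 gave 37, leaving out CGG 2 or CGG 3 gave 1 or 0, and leaving out CGG-Cit 1, 2 or 3 gave 2, 0 or 14. Rescaling to TPM, which moved the median over all genes to 0.16, left 15, and no filter left 19.

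The medians of the mitochondrial subunits were -0.64 in complex I, -0.48 in complex IV and -0.56 in complex V, with CYTB at -0.74, against -0.42, -0.40, -0.45 and -0.46 for the nuclear subunits of complexes I, IV, V and III. Whether the 2 sets of subunits differ in response was not tested. Set against the nuclear subunits within each library, mitochondrial messages of complex I stood at 35.5, 49.7 and 35.6 times the mean nuclear level per gene in CGG and at 29.6, 34.3 and 32.7 times in CGG-Cit. For complex IV the ratio was 54.6, 73.8 and 51.6 in CGG and 49.5, 55.1 and 54 in CGG-Cit. For complex III it was 69.3, 96.9 and 65.8 against 57.7, 66.2 and 66.8, and for complex V 33.9, 49 and 31.8 against 31.3, 35.4 and 34.5. CGG 2 was high in every ratio. CGG 1 and 3 overlapped with CGG-Cit in complexes III, IV and V, and lay above all CGG-Cit libraries in complex I. In CGG 2 the nuclear subunits of complex I summed to 2519 FPKM, close to the 2381 of CGG 3 and above the 1944 of CGG 1, so the height of CGG 2 was larger in the mitochondrial than in the nuclear subunits.

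**Figure D5:**
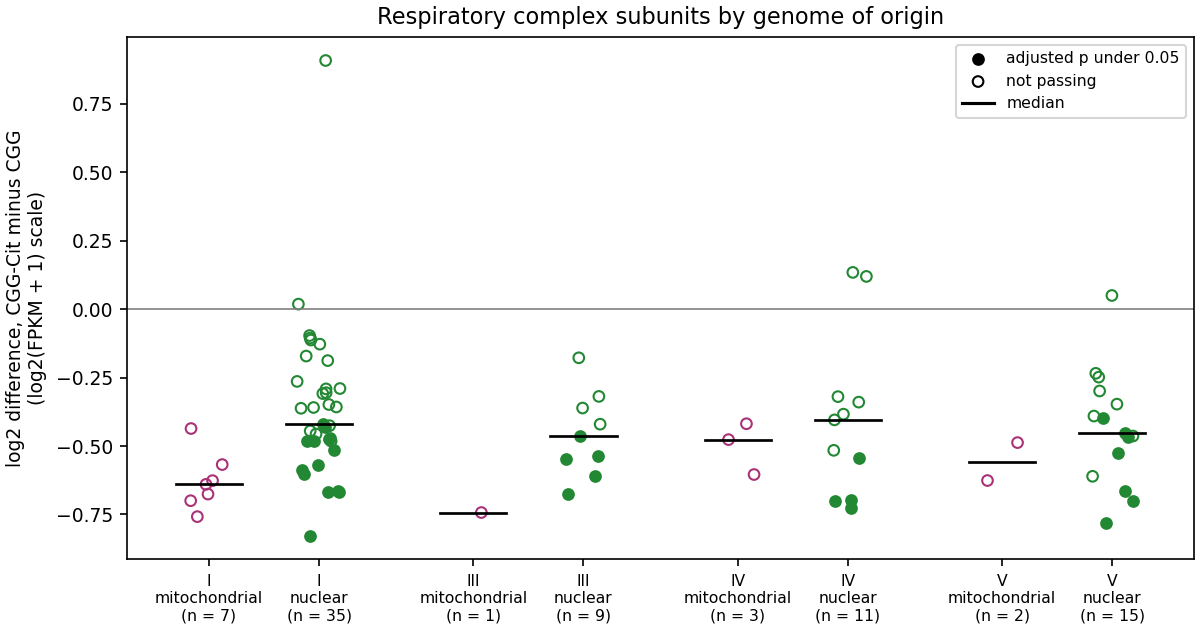
Log2 differences (CGG-Cit minus CGG, log2(FPKM + 1) scale) of mitochondrial and nuclear subunit genes of complexes I, III, IV and V (points, filled where the limma adjusted p is under 0.05; lines are medians). The 13 mitochondrial genes lie between -0.76 and -0.42 with none passing (COX1, COX2 and COX3 are above 0 with quantile normalization), and 29 nuclear subunit genes of complexes I, III, IV and V are filled.

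Genes that copy and express the mitochondrial genome were rarely called. Of 80 tested genes of transcription, replication, RNA processing, RNA stability, tRNA charging, translation and biogenesis control, 1 fell and 0 rose (1.25% lower, against 9.78% of all genes; median -0.12; 15 at an unadjusted limma p under 0.05 in either direction, against 35.4% of all genes). Tbrg4, a member of the FASTK family that supports mitochondrial RNAs, fell from 16.8 ± 1.59 to 12.6 ± 0.859 FPKM (SD, n = 3; limma adjusted p = 0.049), a call that ended in 10 of 18 alternative fits, including those without any 1 library (adjusted p up to 0.214). Tfam, which packages the genome and starts transcription, stood at 23.6, 22.4 and 27.3 FPKM in CGG and at 17.6, 18.7 and 19.5 in CGG-Cit. Its groups did not overlap, with a difference of -0.37 ± 0.103 (SE; limma adjusted p = 0.0514; passing in 3 of 18 alternative fits). CGG 2 was the lowest CGG library for Tfam and the highest for every mitochondrial message. Polrmt, the RNA polymerase of the organelle, averaged 5.06 ± 0.116 and 4.54 ± 0.341 FPKM (limma adjusted p = 0.422; log2 difference -0.13, and 0.0165 after rescaling to TPM). Lrpprc, which stabilises mitochondrial messages, averaged 20.4 ± 2.91 and 16.3 ± 1.02 FPKM (limma adjusted p = 0.133).

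By list, medians were -0.21 for transcription and replication (14 tested), -0.04 for RNA processing and modification (18), -0.09 for RNA stability and turnover (12), -0.08 for the tRNA synthetases (17), -0.13 for translation factors (13) and -0.10 for biogenesis regulators (6). Ppargc1a, a coactivator that drives mitochondrial biogenesis, was too low to be tested, at 0.321, 0.608 and 0.696 FPKM in CGG and 0.0956, 0.118 and 0.0653 in CGG-Cit. Of 13 genes that mark mitochondrial content, 2 fell and 0 rose (median -0.24), where 9.78% of all genes fell. These were Vdac1, a channel of the outer membrane, which fell from 67.8 ± 10.7 to 37.8 ± 1.3 FPKM (limma adjusted p = 0.0145), and the phosphate carrier gene Slc25a3, which fell by 0.43. Vdac1 passed in 17 of 18 alternative fits, all but that without CGG-Cit 2 (adjusted p = 0.0585), and Slc25a3 in 9. Cs, the citrate synthase gene, averaged 90.8 ± 13.5 and 74.5 ± 0.638 FPKM (limma adjusted p = 0.15).

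Markers of several cell types moved with the groups, where 9.78% of all genes tested fell and 7.75% rose. Of 7 skeletal muscle markers 7 fell, their summed FPKM running from 6206 to 7188 in CGG and from 37.6 to 311 in CGG-Cit, with Ckm, the muscle creatine kinase, falling by 6.43 and the muscle actin Acta1 falling by 6.36 on the log2 scale. All 7 neutrophil markers tested fell (sums of 13684 to 15112 and 2143 to 5563), as did 5 of 5 erythroid markers (24288 to 29676 and 7870 to 15553) and 4 of 6 osteoblast markers. Of 7 macrophage markers 6 rose (655 to 704 and 1199 to 1810), and 4 of 5 fibroblast markers rose (787 to 1325 and 1545 to 1825). Of 3 brain markers tested 0 passed (15.3 to 24.2 and 16 to 18.3; 0 at an unadjusted limma p under 0.05, against 35.4% of all genes). Their part in the mitochondrial differences was not tested. Within CGG the muscle genes did not order the libraries alike. In CGG 2, the library highest in mitochondrial messages, 5 of the 7 markers were at their lowest and 2 at their highest, and the sum was 6206 FPKM, against 7188 and 6824 in CGG 1 and 3. The markers highest there were Mb, the oxygen carrier myoglobin, at 94.6, 882 and 793 FPKM in CGG 1, 2 and 3, and the troponin gene Tnnc2, at 667, 741 and 701. Cox6a2, the muscle form of a complex IV subunit, was also highest in CGG 2, at 83.7, 154 and 147 FPKM. Cox8b, the other muscle form tested, was instead highest in CGG 3, at 18.5, 53.7 and 58.7 FPKM.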

How the data were processed

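Total RNA from the defect tissue was isolated with Trizol, per the labels' protocols, and sequenced in pairs. The authors deposited FPKM per gene for 34045 genes, with gene lengths and positions. Without saying what each was used for, the submitters' processing notes list the build mRatBN7.2 and the tools DESeq2 1.20.0, featureCounts 1.5.0-p3 and HISAT2 2.0.5. Not given in the sources used here are the strand setting, the treatment of reads with several matches and the annotation release. Coordinates are those of the deposited table and could not be tied to a build.

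FPKM times gene length gave whole fragments in 100% of values, within 0.01 fragments. The library sizes behind the FPKM differed from the recovered fragment sums, at 15955343 against 15054925 in CGG 1 and 15631490 against 16224920 in CGG 2. Groups and replicate numbers came from the labels. Genes whose mean reached 0.5 FPKM were tested with limma 3.58.1 in R 4.3.3 (lmFit, and eBayes with a trend) on log2(FPKM + 1), without a block, with Benjamini-Hochberg adjustment over all 15965 genes and a threshold of 0.05. That scale understates the change of low genes. The script was checked on simulated data. Means are linear FPKM ± SD.

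The members and lists were chosen with earlier results of these data known. Named were all protein-coding and rRNA members, the called tRNA gene with the 3 highest and 3 lowest tRNA genes, from each list the called genes of smallest p (up to 3), and Polrmt, Tfam, Lrpprc, Ppargc1a, Cs, Vdac1, Ckm and Acta1. The chromosome 20 locus, Mb and Tnnc2 were chosen after their values were seen. Of 223 symbols in the lists 217 matched the table, 5 by a synonym in the RefSeq gene table, and the other 6 were not analysed here. The alternatives were pseudocounts of 0.1 and 0.5, a filter at 2 FPKM and none, 4 scalings (median-of-ratios, TPM, TPM over nuclear genes, quantile), voom on the recovered fragments, robust variance, sample quality weights, the replicate block and each library left out. Median-of-ratios scaling nearly repeated the main fit, with a median log2 difference of -0.623 over the 13 protein-coding genes, against -0.626. Tables were made with Python 3.11.15 and pandas 2.3.3.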

Additional observations from a re-analysis of the deposited data

How the results depend on the processing

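All 13 protein-coding genes stayed unpassed in all 18 alternative fits (smallest adjusted p 0.0527, ND4L with voom), with the median log2 difference between -0.81 (without CGG 1) and -0.36 (quantile normalization), and -0.39 without CGG 2. With quantile normalization COX1 reversed to 0.44, COX2 to 0.20 and COX3 to 0.10, and the cause was not tested. The 1 member called lower became 0 without the filter, with TPM, with nuclear TPM, with voom and with the replicate block, and 2 with sample quality weights; it was 0 to 2 when a library was left out. The nuclear genes called lower, 34, became 22 without the filter, 18 with TPM and 13 with the replicate block, and 2 to 41 when a library was left out (41, 4 and 3 on leaving out CGG 1, 2 and 3, and 5, 2 and 17 on leaving out CGG-Cit 1, 2 and 3), and those called higher, 0, became 2 with TPM and with nuclear TPM. These counts over the nuclear lists were added after seeing the data.

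Among thinly counted tRNA genes, that starting at MT 4943 (0.02) reversed to -0.63 and -0.10 with pseudocounts of 0.1 and 0.5, to -0.0267 with nuclear TPM and to -0.17 with voom, and ran from -0.38 to 0.61 with a library left out. The genes starting at MT 6865, 9383 and 11538 ran from -0.0212 to 0.79, from -1.12 to 0.14 and from -1.32 to 0.30 with a library left out. That at MT 15348 came to 0.11 with TPM, 0.0606 with nuclear TPM and 0.065 with quantile normalization, and ran from -0.19 to 0.0399 with a library left out. Polrmt came to 0.0165 with TPM. The mitochondrial share of fragments differed by -3.16 to -1.29 percentage points with a library left out. Same-numbered libraries correlated in their deviations at -0.0956, 0.00165 and -0.0779, and other pairs at -0.0587 to 0.125. With 3 libraries per group, these values cannot show whether same-numbered libraries shared a batch or source. The labels tie no libraries across the groups, and no library pair was treated as paired. With the replicate block 0 of the 13 genes passed, and over all genes 612 were higher and 1055 lower, against 1237 and 1561 without it. The 14 plus-strand tRNA genes held 33 to 108 fragments per library in all, which limits the precision of their values.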
